A study of Mus musculus with 4 samples.

Results

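*Sox9*, *Sox5*, *Sox6* and the non-coding gene *BC006965* were followed in single cells of the fetal mouse hindlimb. These are 4 of the 32288 genes in the count files, taken by symbol, and all 4 had UMIs in the cells kept and passed the filter on low counts in every comparison. All 4 were chosen with results of these data in view, and *BC006965* was selected on its measured difference between conditions over all cells, so the values of that contrast describe the genes and do not test them.

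SOX9 is the transcription factor that mesenchymal cells need in order to become chondrocytes, and it activates the genes of the cartilage matrix. SOX5 and SOX6 are closely related proteins of another Sox subgroup that carry a DNA-binding domain but no known activation domain of their own. They bind beside SOX9 at cartilage enhancers and strengthen its action, which is why the 3 proteins are called the SOX trio. *Sox9* lies in a large stretch of chromosome 11 that holds few protein-coding genes and many of its distant enhancers, and *BC006965* is annotated in that stretch as a processed transcript with no protein product.

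Embryos were collected at E14.5 and all of them carried *Gli1*CreER/+, R26 LSL-tdT/+ and *Tigre* TRE-p21/+. *Pan-Cart-p21MOE* embryos (p21 below) also carried *Col2a1-rtTA*, and control embryos lacked it. This transgene makes the activator rtTA in cartilage cells, and under doxycycline rtTA turns on p21 from the Tet-responsive element (TRE) of the *Tigre* allele. Mothers of both groups received doxycycline from E12.5 (1 mg/ml in the water, and in the food) and 120 µg/g tamoxifen at E13.5, which labels descendants of *Gli1*-expressing cells with tdTomato. Hindlimb cells (femur and tibia in the labels, the whole hindlimb in the study's text) were separated by tdTomato fluorescence (tdT+ or tdT−) at each of 2 collections, which gave 4 libraries. In collection 1 the p21 cells were male and the control cells female, and in collection 2 the reverse, so that each library split by sex gave 8 pseudobulks (summed counts), 4 per condition. The 2 fractions of a collection came from the same embryos, so the 4 values per condition stand for 2 pools, and the study's methods list a single p21 female. Sex and condition cannot be told apart within a library but are balanced over the 2 collections.

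After filtering, 2776 cells with a median of 22600 UMIs remained, between 100 and 788 per pseudobulk. Between 706 and 3912 barcodes per library passed the depth filters, and in the tdT− library of collection 2 as many as 2745 of 3912 had no sex call and were left out. No 2 libraries shared more than 3 passing barcodes. Levels are given as CPM, UMI counts set to a common library total, and in comparisons of conditions or fractions they were also scaled by edgeR's TMM factors. The transgene sequence WPRE was measured in chondrocytes at 1196 to 2056 CPM in p21 and 70.4 to 706 in control pseudobulks, without overlap (log2 fold change 2.61 ± 0.398 SE, adjusted p = 0.0147, edgeR), while *Cdkn1a*, the mouse gene for p21, was at 62.2 to 69.5 and 25.3 to 105. In control cells WPRE was higher in the tdT+ libraries (706 and 465) than in the tdT− libraries (130 and 70.4). According to the study, the tdTomato and p21 alleles both carry WPRE, and 3′ reads of either transgene fall mostly on it. WPRE is therefore not particular to p21.

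Unsupervised clustering, from which the 4 genes were left out, gave 22 clusters. Clusters named as chondrocytes by their markers held 770 cells, comprising 201 resting, 388 proliferative and 181 prehypertrophic or hypertrophic chondrocytes. The summed level of 10 chondrocyte markers there was 18115 to 22671 CPM, but these markers also served to name the class. It was 0.650 to 8.66 for 6 immune markers and 3.25 to 16.5 for 7 muscle markers. Markers of nearer tissues were higher, at 273 to 440 CPM for connective tissue mesenchyme, 284 to 384 for interzone or articular and 111 to 221 for perichondrium or groove. Other named classes were interzone or articular cells (162), tenocytes (103), muscle (52), osteoprogenitors (50), immune cells (49, of which 43 came from the tdT− p21 cells of collection 2) and endothelial cells (12). The other clusters are called by number. They lacked a match to 3 markers with a sufficient score, had more genes of another type among their leading genes, were shallow without own markers among those genes, or came from 1 library. Clusters 14 (75 cells, 73 of them from the tdT+ library of collection 2, with a median of 3176 UMIs) and 21 (12 cells of the tdT− library of collection 2) matched 5 and 9 of the 10 chondrocyte markers but stayed unnamed by these rules, and are counted among the other cells. Clusters 8 (162 cells, led by *Wdr95* and *Itgam*) and 10 (155 cells, led by *Spaar* and *Lef1*) matter most below. They carried the cartilage collagen gene *Col2a1* at 3582 and 3770 CPM, against 7351 in the chondrocyte class and 1403 over all other cells, and met 3 resting chondrocyte markers each without reaching the score for a name. Naming depended on the settings. With a coarser clustering (Leiden resolution 0.5), a cluster with *Spaar* among its leading genes was named resting chondrocyte. With doublets kept, a cluster with *Itgam* among its leading genes was named proliferative chondrocyte, while one with *Spaar* and *Lef1* stayed unnamed. Which cells these clusters share with clusters 8 and 10 was not compared.

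On the mouse genome build GRCm38, *Sox9* is a compact gene of 5.54 kb with 3 exons (ENSMUSG00000000567, chr11:112782224-112787760, plus strand). *BC006965* (ENSMUSG00000041674, chr11:112663927-112781976) occupies 118 kb on the minus strand, and its outermost start lies 248 bp from the *Sox9* start, so that the 2 genes point away from each other. *Sox5* (ENSMUSG00000041540, chr6:143828425-144781977, minus strand) and *Sox6* (ENSMUSG00000051910, chr7:115470872-116038796, minus strand) span 954 and 568 kb, with 14 and 16 annotated transcripts. Only 1 of the 18 annotated transcripts of *BC006965*, BC006965-205, begins beside *Sox9*. The others begin 37.9 to 113 kb away, and most of them lie about 70.9 kb from the *Sox9* start. The first 100 bases of the *Sox9*-proximal transcript and of BC006965-201, which starts at the distal site, are shown because the counts are per gene and cannot tell which of these starts was in use.
BC006965-205, from chr11 position 112781976: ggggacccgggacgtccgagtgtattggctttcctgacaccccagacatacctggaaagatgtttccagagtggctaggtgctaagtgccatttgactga
BC006965-201, from chr11 position 112711356: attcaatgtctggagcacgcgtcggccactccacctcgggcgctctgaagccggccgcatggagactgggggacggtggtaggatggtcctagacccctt

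RefSeq places the *BC006965* promoter at the distal site. It is printed with its single TATAAA, a core promoter motif found on the given strand of 8.32% of 32851 mouse promoters of 300 bases, in capitals.
BC006965 promoter, GRCm38.p6, chr11:112711307-112711606, minus strand: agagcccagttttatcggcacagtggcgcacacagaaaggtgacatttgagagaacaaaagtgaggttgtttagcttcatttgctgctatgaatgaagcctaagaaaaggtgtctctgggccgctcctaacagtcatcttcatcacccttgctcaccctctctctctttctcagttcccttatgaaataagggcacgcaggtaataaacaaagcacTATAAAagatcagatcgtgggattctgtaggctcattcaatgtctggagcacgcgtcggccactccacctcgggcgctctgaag
SOX proteins are known to bind sequences related to AACAAT. This motif was searched on both strands (AACAAT and ATTGTT) and was not found in these 300 bases, nor in the single RefSeq promoter of *Sox5*. It was found in 1 of the 6 RefSeq promoters of *Sox6*, in both orientations, and in 10.7% of all promoters. That *Sox6* promoter is shown with the matches in capitals, as the only RefSeq promoter of *Sox5*, *Sox6* and *BC006965* in which the motif was found. No promoter of *Sox9* was searched. A match describes the letters and not a bound site.
Sox6 promoter, GRCm38.p6, chr7:115824661-115824960, minus strand: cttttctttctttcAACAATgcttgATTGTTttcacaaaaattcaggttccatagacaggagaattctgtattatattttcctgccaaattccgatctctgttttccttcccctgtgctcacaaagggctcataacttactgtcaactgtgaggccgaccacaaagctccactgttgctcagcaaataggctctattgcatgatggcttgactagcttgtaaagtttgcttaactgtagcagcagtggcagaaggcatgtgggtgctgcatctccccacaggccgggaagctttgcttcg

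The 4 genes were each higher in chondrocytes than in the other cells of the limb, but differed in the classes where they peaked. The values are unscaled CPM, summed over the cells of a class in a pseudobulk, and only classes of at least 10 cells in a pseudobulk were used. They describe these cells and were not tested, since the classes were built from the same cells. The share of all genes that separate chondrocytes from other cells without overlap is not given, so such a separation does not set a gene apart. The 3′ counts do not support a comparison of level between genes, the more so as *Sox5* and *Sox6* are long and intronic reads may be included.

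*Sox9* was at 683 ± 33.2 CPM (SD, n = 8) in chondrocytes, with pseudobulks between 643 and 729, and at 397 ± 64.6 CPM (306 to 489) in the other cells. It was higher in chondrocytes in 8 of 8 pseudobulks and the ranges did not overlap. Within cartilage it stood at 775 ± 124 CPM (n = 8) in resting and 752 ± 73.8 CPM (n = 7) in proliferative chondrocytes, a difference smaller than the spread. It was lower in prehypertrophic or hypertrophic chondrocytes, at 473 ± 162 CPM (n = 4), in 4 of 4 pseudobulks against both earlier stages. Within those 4 pseudobulks the stages did not overlap, but over all pseudobulks the lowest resting value (533 CPM) lay below the highest of the prehypertrophic or hypertrophic values (572 CPM). Of the classes measured in at least 4 pseudobulks, the highest was cluster 10, with 1153 ± 249 CPM (n = 5), above resting chondrocytes in 5 of 5 pseudobulks. Interzone or articular cells, the precursors of the joint, had 762 ± 201 CPM (n = 6), within the spread of resting and proliferative chondrocytes. The lowest of the larger clusters were cluster 1 (169 ± 56.5 CPM, n = 8) and cluster 2 (98.1 ± 25.6 CPM, n = 7), which was led by the connective tissue genes *Osr1* and *Dcn*.

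*Sox5* was at 998 ± 93.7 CPM (879 to 1138, n = 8) in chondrocytes and 470 ± 136 CPM (326 to 658) in other cells, again higher in 8 of 8 pseudobulks and without overlap. In contrast to *Sox9*, it was higher in proliferative (1421 ± 354 CPM, n = 7) than in resting chondrocytes (777 ± 146 CPM, n = 8) in all 7 pseudobulks that held both. In prehypertrophic or hypertrophic chondrocytes it was at 767 ± 257 CPM (n = 4), below the proliferative value in 3 of 4. Clusters 8 (1349 ± 387 CPM, n = 6) and 10 (1187 ± 335 CPM, n = 5) and the interzone or articular cells (1056 ± 415 CPM, n = 6) did not differ from their neighbours in this order beyond their spread.

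*Sox6* was at 1000 ± 165 CPM (799 to 1236, n = 8) in chondrocytes and 566 ± 117 CPM (451 to 742) in other cells, higher in 8 of 8 pseudobulks and without overlap. Its highest class was outside the chondrocytes. Interzone or articular cells had 1783 ± 434 CPM, above the chondrocytes of the same pseudobulk in 6 of 6, although only by 376 CPM above cluster 8 (1407 ± 285 CPM, n = 6), which is within the spread. Like *Sox5*, *Sox6* was higher in proliferative (1360 ± 460 CPM, n = 7) than in resting chondrocytes (771 ± 139 CPM, n = 8) in all 7 shared pseudobulks, and lower again in prehypertrophic or hypertrophic chondrocytes (797 ± 77.8 CPM, n = 4) in 4 of 4. The share of thinned cells with *Sox6* was again not higher, at 84.3% of proliferative (80.1 to 88.0, exact binomial) and 90.2% of resting chondrocytes (85.1 to 94.0). Tenocytes, with 189 CPM in each of 2 pseudobulks, had less *Sox6* than the chondrocytes of the same pseudobulks (1021 ± 14.6 CPM).

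*BC006965* was at 80.9 ± 20.3 CPM (56.8 to 106, n = 8) in chondrocytes and 46.1 ± 20.6 CPM (23.8 to 77.0) in other cells, higher in 8 of 8 pseudobulks but with overlapping ranges. Of the classes measured in at least 4 pseudobulks, the 2 with the highest means were not named as chondrocytes at the main settings. Cluster 10 had 258 ± 201 CPM (n = 5) and cluster 8 had 192 ± 124 CPM (n = 6), against 100 ± 26.7 CPM (n = 7) in proliferative, 74.8 ± 32.7 CPM (n = 8) in resting and 64.4 ± 38.3 CPM (n = 4) in prehypertrophic or hypertrophic chondrocytes. The gaps between these neighbours were within the spread, and cluster 19, with 1 pseudobulk of 16 cells, was at 215 CPM. In interzone or articular cells it was at 16.9 ± 15.7 CPM (n = 6), below the chondrocytes of the same pseudobulk in 6 of 6 and without overlap. Together clusters 8 and 10 held 20.1% and 17.7% of all *BC006965* UMIs. The means of these clusters pool the conditions. Cluster 10 was at 67.2 and 87.6 CPM in p21 and at 218 to 542 in control pseudobulks. Cluster 8 was at 65.9 to 162 CPM in p21 and 123 to 385 in control. Among p21 pseudobulks cluster 10 averaged 77.4 CPM, against 95.7 in proliferative and 71.8 in resting chondrocytes.

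**Figure D1:**
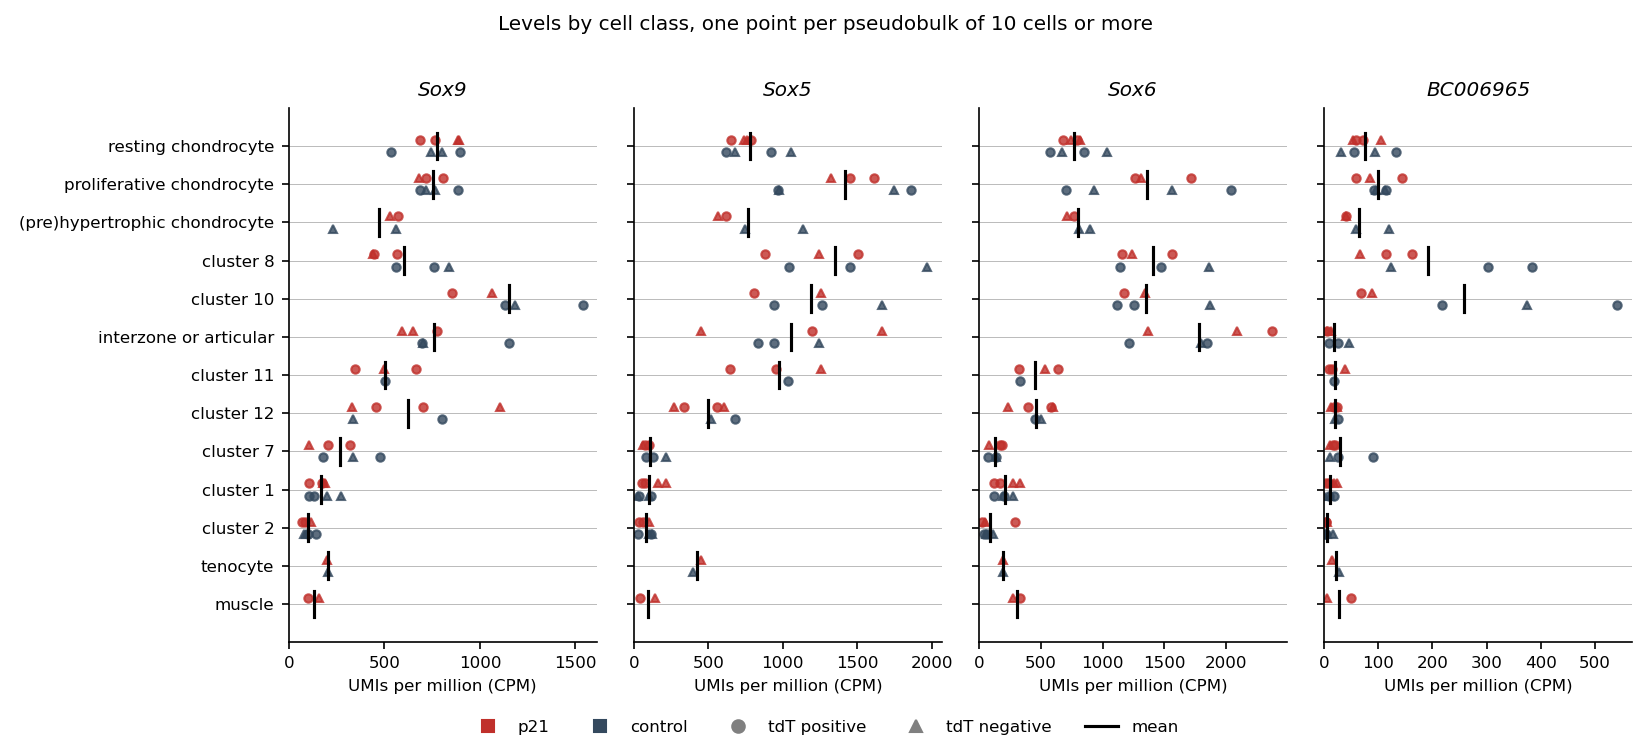
CPM (linear axis) of each gene by cell class, with 1 point per pseudobulk of at least 10 cells, p21 in red and control in dark blue, tdT+ as circles and tdT− as triangles, and black bars for the mean. *Sox9* reached its highest mean in cluster 10 (1153 CPM) and *Sox6* in interzone or articular cells (1783 CPM), where *BC006965* averaged only 16.9 CPM.

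The ratio of chondrocyte to other cells, taken within each pseudobulk, averaged 1.76 ± 0.290 for *Sox9*, 2.28 ± 0.663 for *Sox5*, 1.84 ± 0.538 for *Sox6* and 1.99 ± 0.733 for *BC006965* (SD, n = 8). The last of these depended on where the class ended. It was 7.80 at a coarser Leiden resolution of 0.5, 4.46 with a minimum of 2000 UMIs and 4.52 with doublets kept. At the resolution of 0.5 the ratio was 2.42 for *Sox9*, 3.13 for *Sox5* and 2.45 for *Sox6*, and with barcodes of no sex call included the 3 ratios were 2.59, 3.96 and 3.38, against 5.40 for *BC006965*.

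Relative to *Sox9*, *BC006965* was uneven. Chondrocytes held 11.1 *BC006965* UMIs per 100 *Sox9* UMIs (exact binomial 95% interval 10.6 to 11.7, counting error only) and all other cells 11.3 (10.8 to 11.8). Cluster 8 held 27.0 (24.8 to 29.3) and cluster 10 held 18.4 (16.9 to 20.0). Interzone or articular cells held 1.81 (1.34 to 2.41), although their *Sox9* was within the spread of that in chondrocytes. Over pseudobulks the ratio ran from 0.612 to 6.45 in interzone or articular cells and from 7.93 to 15.7 in chondrocytes, and these ranges did not overlap. The ranges of cluster 8 (14.7 to 53.8) and cluster 10 (7.89 to 35.3) overlapped that of chondrocytes.

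Shares of cells with a UMI were read after each cell was thinned to 5000 UMIs. Of 708 chondrocytes, 85.2% had *Sox9*, 89.1% *Sox5*, 86.2% *Sox6* and 22.2% *BC006965*, against 94.5%, 95.1%, 93.9% and 51.8% before thinning at a median of 23692 UMIs. Of 49 muscle cells, 53.1% had *Sox9* (38.3 to 67.5, exact binomial), 34.7% *Sox5* and 4.08% *BC006965* at a median of 21373 UMIs before thinning. At 67.3%, muscle also had *Sox6*, a gene known to act in fetal muscle. Of 49 immune cells (median 11616 UMIs) 75.5% had *Sox9* (61.1 to 86.7), and these cells also carried *Col2a1* at 1505 CPM. The *Sox9* shares of clusters 1 (36.8%) and 2 (30.5%) and of tenocytes (43.4%) were below that of muscle. No background was measured in the kept cells, so by share these classes cannot be told from it. By level the order differed. Pooled *Sox9* was at 103 CPM in muscle, 201 in tenocytes, 146 in cluster 1 and 100 in cluster 2. The 2 tenocyte pseudobulks, at 201 and 205 CPM, lay above the 2 of muscle, at 102 and 158. Barcodes under 1000 UMIs carried *Sox9* at 269 to 385 CPM, *Sox5* at 108 to 129, *Sox6* at 64.4 to 89.4 and *BC006965* at 22.8 to 38.2, and their part in the low levels was not tested.

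Co-variation across single chondrocytes was strongest between *Sox5* and *Sox6*. Pearson's r of log-normalised values, computed within each of the 4 libraries, had a median of 0.806 (0.549 to 0.850) for this pair. It was 0.398 (0.267 to 0.435) for *Sox9* and *Sox5* and 0.356 (0.0967 to 0.401) for *Sox9* and *Sox6*. With *BC006965* the medians were 0.204 for *Sox9*, 0.121 for *Sox5* and 0.168 for *Sox6*. These are descriptions over 92 or more cells per library that share depth and library, and have no p-value.

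After thinning, *Sox5* and *Sox6* kept a median r of 0.651 (0.648 to 0.707), *Sox9* and *Sox5* 0.300 and *Sox9* and *Sox6* 0.277, each above 0 in 4 of 4 libraries. For *Sox9* and *BC006965* the median was 0.0421 (−0.0946 to 0.175) and was above 0 in 2 of 4. With *Sox5* and *Sox6* the thinned medians of *BC006965* were 0.128 (0.0694 to 0.159) and 0.108 (0.0736 to 0.138), above 0 in 4 of 4. Over all kept cells *Sox9* and *BC006965* had 0.240 (0.181 to 0.247), above 0 in 4 of 4. At the sparse counts of *BC006965* no relation within chondrocytes is read from these values. *BC006965* was found in 22.4% of thinned chondrocytes with *Sox9* (19.1 to 25.9, exact binomial interval) and in 22 of the 105 without it. For *Sox5* the shares were 23.6% with it (20.4 to 27.1) and 10.4% without (4.59 to 19.4, 8 of 77 cells). In the other cells *BC006965* was found in 16.5% with *Sox9* and 4.74% without. *Sox6* was found in 89.1% of chondrocytes with *Sox5* (86.4 to 91.4) and in 62.3% of those without (50.6 to 73.1). All 3 trio genes were found together in 69.8% of chondrocytes and 34.9% of other cells.

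**Figure D2:**
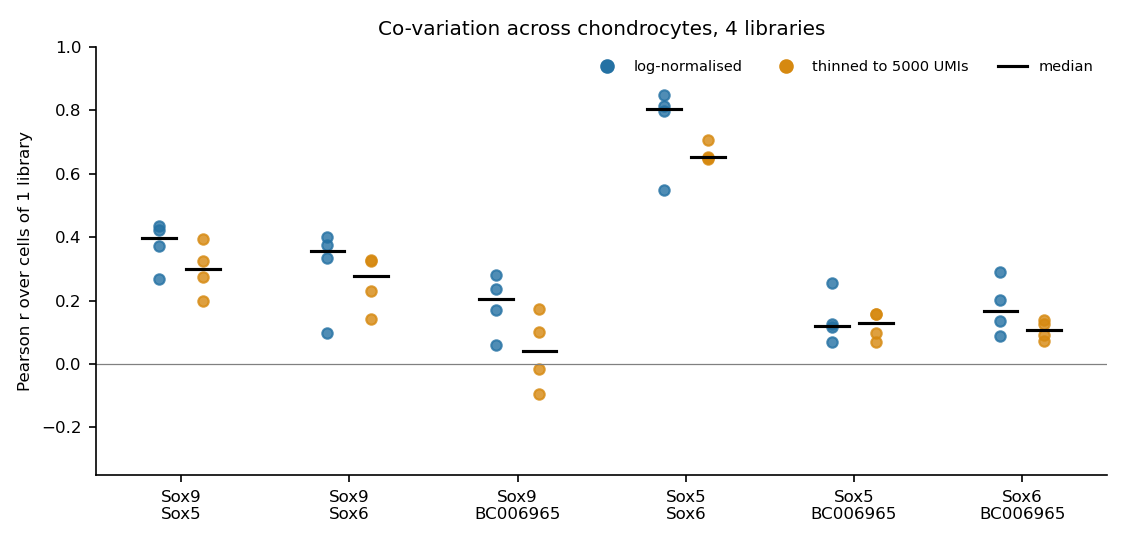
Pearson's r between 2 genes over the chondrocytes of 1 library (points, 4 libraries per pair), from log-normalised values in blue and from counts thinned to 5000 UMIs in orange, with medians as black bars. *Sox5* and *Sox6* lie highest (medians 0.806 and 0.651), and *Sox9* with *BC006965* lies at a median of 0.0421 after thinning.

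By zone, the correlation of *Sox9* with its partners was as follows. In proliferative chondrocytes the thinned median r of *Sox9* was 0.414 with *Sox5* and 0.366 with *Sox6*, above 0 in 4 of 4 libraries. In resting chondrocytes the same medians were 0.0975 and 0.0729. *Sox5* with *Sox6* had 0.735 in proliferative, 0.585 in prehypertrophic or hypertrophic and 0.299 in resting chondrocytes. The difference between zones was not tested.

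Across 18 clusters of at least 30 cells, the genes most like *Sox9* among the 12573 genes that reached 10 CPM in a cluster were *Papss2* (r = 0.942, log2 scale), which supplies the sulphate donor for cartilage proteoglycans, *2610035D17Rik* (0.931), *Wwp2* (0.930), whose intron holds the cartilage microRNA miR-140, *Fgfrl1* (0.922) and *Sox5* (0.918). For *Sox5* they were *Pdk1* (0.925), *Abtb2* (0.922), *Sox9*, the collagen lysyl hydroxylase gene *Plod2* (0.916) and *2610035D17Rik* (0.909). For *Sox6* they were *Swap70* (0.922), the proteoglycan gene *Cspg4* (0.918), *Sox5* (0.867), the transferrin receptor gene *Tfrc* (0.865) and *Myo1d* (0.860). For *BC006965* they were *Susd5* (0.904), *Spaar* (0.890), *Papss2* (0.888), the chondromodulin gene *Cnmd* (0.887) and *Slpi* (0.887), and *Sox9* came only at rank 19 with 0.833.

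The wider *Sox9* stretch was examined next, where 19 annotated genes, *Sox9* included, start within 1 Mb of its start and 15 are in the files. Besides *Sox9* and *BC006965*, 7 of the 15 reached 10 CPM in a cluster, and the other 6 had 2 to 215 UMIs over all kept cells. *2610035D17Rik*, a long intergenic RNA on the minus strand that starts 420 kb downstream of the *Sox9* start (chr11:113043895-113201838, GRCm38), followed *Sox9* (r = 0.931) and *BC006965* (0.827) over the clusters. It was at 139 ± 22.5 CPM in chondrocytes and 66.4 ± 6.77 CPM in other cells (SD, n = 8). It was also at 92.0 ± 49.5 CPM in interzone or articular cells (n = 6), the class where *BC006965* was low. The remaining neighbours, *Cog1*, *Slc39a11*, *Fam104a*, *D11Wsu47e*, *Cpsf4l* and *Cdc42ep4*, start at least 867 kb away and had r of −0.120 to 0.424 with *Sox9*. Over all genes compared, the median r with *Sox9* was −0.0115 and the 90th percentile 0.458.

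**Figure D3:**
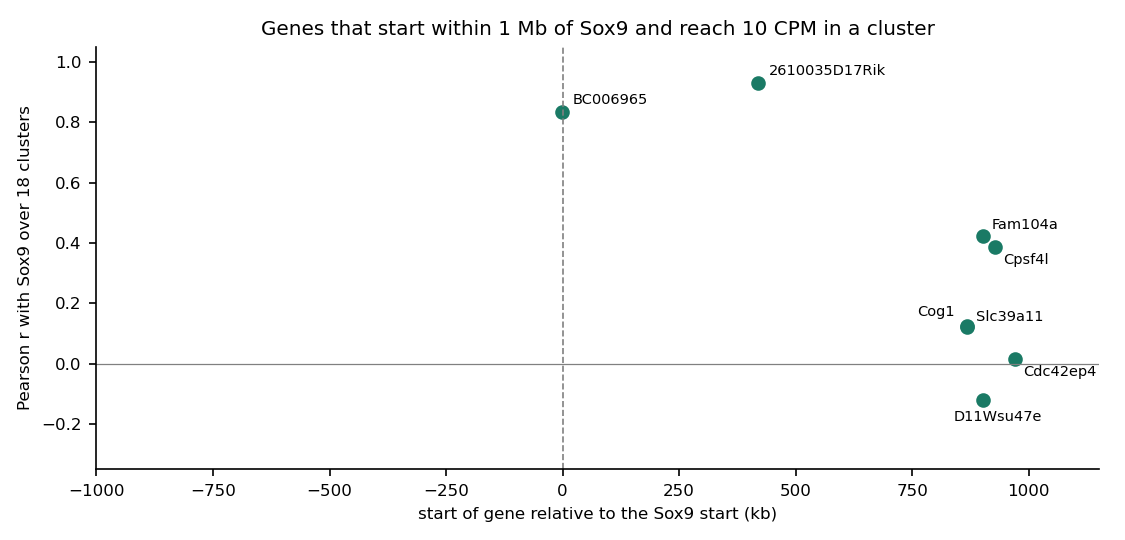
Start of each gene relative to the *Sox9* start (kb) against its Pearson's r with *Sox9* over 18 clusters (log2 of CPM + 1), 1 point per gene. *BC006965* (0.833) and *2610035D17Rik* (0.931) stand above the genes 867 kb or more away (−0.120 to 0.424).

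The comparison of p21 with control asked whether the expression of p21 in cartilage altered the levels of these genes. In the whole limb sample and in chondrocytes, the trio differed by less than the spread between pseudobulks, whereas *BC006965* was lower. Values are CPM scaled by TMM, and the members' values are given as a description with no p-value, because the genes were chosen with this contrast in view. In bulk sums, fewer cells of a type and less RNA per cell cannot be told apart.

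Over all cells *Sox9* was at 353 (tdT+) and 531 (tdT−) in p21 of collection 1 and 450 and 467 in collection 2, and at 466, 604, 436 and 544 in the matching controls. It was lower in p21 in 3 of 4 libraries with overlapping groups (log2 fold change −0.187 ± 0.0862 SE, 95% interval −0.378 to 0.00428). *Sox5* was at 457, 488, 618 and 739 in p21 and 511, 823, 489 and 824 in control (−0.156 ± 0.150, −0.489 to 0.177). *Sox6* was at 577, 596, 741 and 743 in p21 and 520, 838, 574 and 871 in control (−0.0385 ± 0.135, −0.338 to 0.261). The groups overlapped for both genes, and the difference turned positive for each when the tdT− p21 cells of collection 1 were left out (9.33e-05 for *Sox5* and 0.0836 for *Sox6*).

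*BC006965* was at 37.1 and 37.2 scaled CPM in the tdT+ and tdT− p21 cells of collection 1 and at 39.2 and 40.8 in those of collection 2. The matching controls were at 82.0, 86.8, 60.0 and 76.7. Every p21 value was below every control value, and the p21 values lay close together (38.6 ± 1.77, SD, n = 4, against 76.4 ± 11.7). The log2 fold change was −0.968 ± 0.108 SE, the 60th lowest of 14938 genes. By edgeR, 3 of the 14938 genes passed an adjusted p of 0.05 in this contrast (0.0201%), and 1.63% were, like *BC006965*, lower in p21 without overlap. These shares stand beside the value that chose the gene and are not support for it.

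Within chondrocytes *Sox9* was at 636, 697, 726 and 663 scaled CPM in p21 (tdT+ and tdT− of collection 1, then of collection 2) and at 745, 680, 714 and 665 in control (log2 fold change −0.0416 ± 0.0819 SE, 95% interval −0.220 to 0.136). *Sox5* was at 1046, 863, 1093 and 953 against 937, 934, 1175 and 1074 (−0.0616 ± 0.0933, −0.264 to 0.141). *Sox6* was at 1198, 818, 1036 and 1010 against 818, 873, 1277 and 1062 (0.00811 ± 0.134, −0.283 to 0.299). The groups overlapped for all 3 genes, and the intervals leave room for changes of up to about 0.3 on the log2 scale. *BC006965* was at 86.9, 68.0, 57.5 and 62.4 against 108, 103, 64.7 and 104. It was lower in 4 of 4 libraries, but the tdT+ control cells of collection 2 lay among the p21 values, so the groups overlapped (−0.503 ± 0.182 SE). With 1 pseudobulk left out the difference ran from −0.401 (without the tdT+ control cells of collection 1) to −0.667 (without those of collection 2). It also moved with the definition of the class and was −0.987 at Leiden resolution 0.5, the lowest of 18 alternatives. edgeR called 52 of 11361 genes in this contrast (0.458%, 36 of them lower in p21), and 3.57% of genes were lower without overlap.

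**Figure D4:**
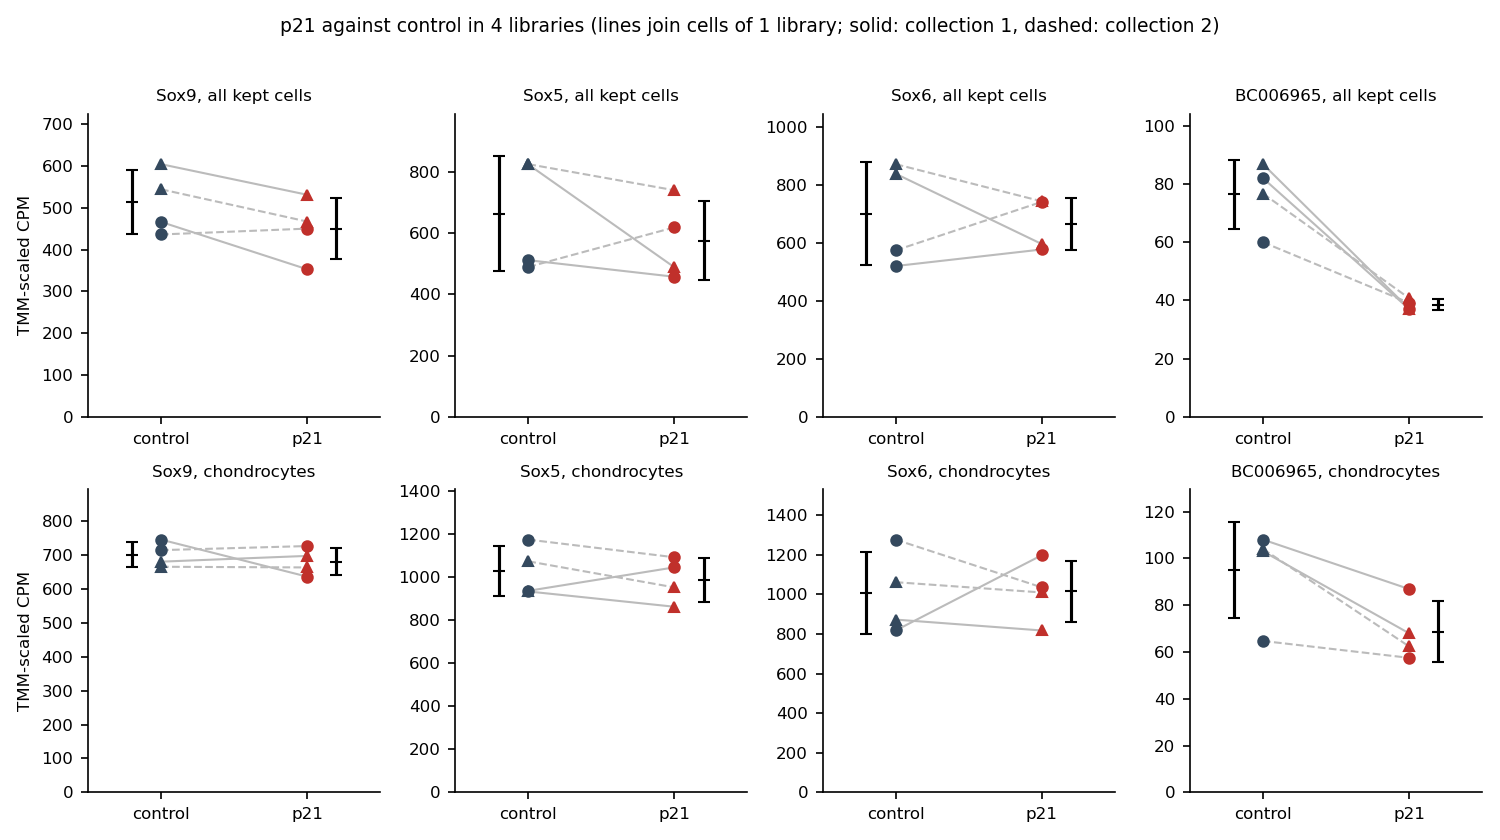
TMM-scaled CPM (linear axes from 0) of each gene in control (dark blue) and p21 (red) pseudobulks, over all kept cells (top) and chondrocytes (bottom), tdT+ as circles and tdT− as triangles, with black bars for the mean ± SD of 4 values. Lines join the cells of 1 library. The control and p21 points of *BC006965* separate over all cells (60.0 to 86.8 against 37.1 to 40.8) and overlap in chondrocytes, and the trio overlaps in both.

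The lower *BC006965* in p21 cells was then divided over the sample, in parts chosen after the values were seen and given without a test. In the sum of clusters 8 and 10, *BC006965* was at 163 and 145 CPM in the tdT+ and tdT− p21 cells of collection 1 and at 98.3 and 75.0 in those of collection 2. The matching controls were at 410, 274, 299 and 211, without overlap. How many of all genes separate in this way in these clusters was not counted. *Sox9* in the same clusters was also lower in p21, at 642 to 819 CPM (706 ± 79.6) against 948 to 1050 (1002 ± 42.0), again without overlap, although its level in chondrocytes was 683 CPM on average in both conditions. Per 100 *Sox9* UMIs, *BC006965* in these clusters was at 10.7 to 25.4 in p21 and 20.9 to 40.9 in control, lower in 4 of 4 libraries. Cluster 8 alone overlapped between conditions for *BC006965* (65.9 to 162 CPM in p21, 123 to 385 in control) and for *Sox9*. Its ratio to *Sox9* was lower in 2 of 3 libraries. Cluster 10 alone did not overlap for either gene, but had only 2 p21 and 3 control pseudobulks of at least 10 cells. The clusters made up 9.09% ± 4.50 (SD, n = 4) of the p21 cells and 9.35% to 16.0% of the control cells (mean 13.9%), a smaller share in p21 in 4 of 4 libraries, and 1 of the p21 values rests on 5 cells. Cluster sizes can shift with the genes that define them, and the part of either in the result was not tested.

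With clusters 8 and 10 left out, the rest of the sample had *BC006965* at 24.1 to 37.2 CPM in p21 and 25.9 to 62.2 in control, which overlap. It was still lower in p21 in 3 of 4 libraries, with means of 29.1 ± 5.64 and 47.3 ± 17.2 (SD, n = 4). The cells in neither these clusters nor the chondrocyte class had 8.27 to 21.4 CPM in p21 and 17.0 to 20.1 in control, levels below the 22.8 to 38.2 CPM of barcodes under 1000 UMIs. In resting chondrocytes (71.8 ± 23.5 against 77.9 ± 43.8 CPM, n = 4 each) and proliferative chondrocytes (95.7 ± 43.4, n = 3, against 103 ± 11.7, n = 4) the difference was within the spread. In prehypertrophic or hypertrophic chondrocytes it was at 39.2 and 40.1 CPM in 2 p21 pseudobulks and at 57.8 and 120 in 2 control pseudobulks.

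**Figure D5:**
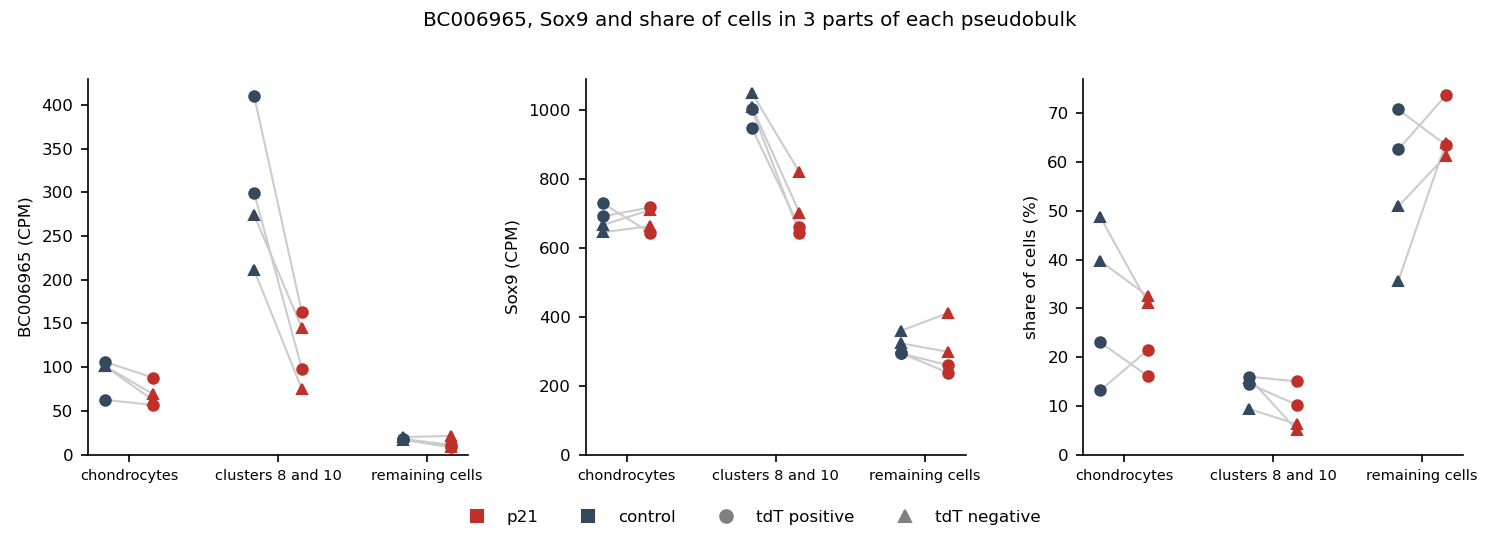
*BC006965* (CPM), *Sox9* (CPM) and the share of cells (%) in chondrocytes, in clusters 8 and 10 and in the remaining cells, with 1 point per pseudobulk (control in dark blue, p21 in red, tdT+ as circles, tdT− as triangles) and lines joining the cells of 1 library. In clusters 8 and 10 the control points lie above the p21 points for *BC006965* (211 to 410 against 75.0 to 163) and *Sox9* (948 to 1050 against 642 to 819). How many of all genes separate in this way there was not counted, and 1 p21 point rests on 5 cells.

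The comparison of tdT+ with tdT− chondrocytes, with condition as covariate, was not used in choosing the genes. The transgene tdt differed as labelled (log2 fold change 3.80 ± 0.362 SE, adjusted p = 0.00182, edgeR), and edgeR called 2 of 11361 genes (0.0176%). None of the 4 members was among them. *Sox9* was at 705 ± 48.1 scaled CPM in tdT+ and 676 ± 16.1 in tdT− chondrocytes (SD, n = 4), with a log2 fold change of 0.0617 (95% interval −0.116 to 0.240) and an exact permutation p of 0.343. *Sox5* was at 1063 ± 99.1 and 956 ± 87.6 (0.153, −0.0494 to 0.356, exact permutation p = 0.171). *Sox6* was at 1082 ± 203 and 941 ± 114 (0.198, −0.0929 to 0.489, exact permutation p = 0.343). *BC006965* was at 79.4 ± 23.1 and 84.5 ± 22.4 (−0.0652, −0.460 to 0.330, exact permutation p = 0.686). The adjusted p from edgeR was 1.00 for each. The permutation tests are two-sided over the 70 ways of dividing 8 pseudobulks, and the smallest p they can give is 0.0286. These divisions do not keep the fractions of an embryo pool together. Within the 4 pairs of the same pool, *Sox5* was higher in tdT+ in 4 of 4, *Sox9* and *Sox6* in 3 of 4 and *BC006965* in 2 of 4. An exact permutation of the signs within pairs, added after the data were seen, gave a two-sided p of 0.125 for *Sox5*, the smallest that 4 pairs allow, and of 0.375 or more for the other 3 genes.

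Whether the p21 effect differed between tdT+ and tdT− chondrocytes was tested by the interaction of condition and fraction. It called 0 of 11888 genes (0%) in edgeR, with 265 at an unadjusted p under 0.05, and 0 in DESeq2 and limma voom. On simulated counts the edgeR fit recovered only 2 of 100 changes of 1 log2 unit and 47 of 100 changes of 2. The absence of calls therefore says little about changes of this size. The interaction was −0.112 ± 0.180 SE for *Sox9*, 0.165 ± 0.198 for *Sox5*, 0.174 ± 0.278 for *Sox6* and 0.380 ± 0.369 for *BC006965* on the log2 scale (adjusted p = 1.00 each, edgeR), intervals wide enough to hold sizeable differences.

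The genes that the trio acts on and with were counted in the p21 contrast in chondrocytes from lists of known roles, on which no set test was run. Of 27 cartilage genes known as targets of the trio, 0 rose and 1 fell past an adjusted p of 0.05, and 7 (25.9%) had a positive fold change. Over all 11361 genes 16 rose and 36 fell, and 49.5% had a positive fold change. The median of the list was −0.138 on the log2 scale, against −0.00244 over all genes. The gene that fell was *Matn3*, which encodes the cartilage matrix protein matrilin-3. It was at 132, 115, 114 and 151 scaled CPM in p21 chondrocytes and 252, 257, 392 and 438 in control chondrocytes, without overlap (−1.37 ± 0.184 SE, adjusted p = 0.0137, edgeR). This call was lost without the tdT+ p21 cells (adjusted p = 0.0527, edgeR) or the tdT− control cells (0.0606) of collection 2, and over its 18 alternatives the adjusted p ran from 6.95e-22 to 0.0606. *Matn3* is also one of the 6 markers by which proliferative chondrocytes were named. The main cartilage collagen gene *Col2a1* was at 7368 ± 626 and 7218 ± 822, and the aggrecan gene *Acan* at 859 ± 35.9 and 861 ± 155. Both, like other genes of the list, are also markers by which the chondrocyte class was named. The level of such a marker in cells chosen for having it is partly fixed by that choice. Their near-equal values and the counts of the list therefore describe the class as named, and cannot decide whether p21 altered the targets.

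Of 26 transcription factors and cofactors tested that act with, before or against the trio, 0 passed in either direction. The 3 most abundant were *Ctnnb1*, the gene of β-catenin (log2 fold change 0.00888 ± 0.0968 SE), *Mef2c*, a driver of hypertrophy (0.179 ± 0.242), and *Erg*, a factor of articular cartilage (0.0738 ± 0.173). *Arid5b*, a partner of SOX9 in cartilage, was chosen after its values were seen. It was at 47.2, 63.8, 66.2 and 60.8 scaled CPM in p21 and 21.3, 40.0, 12.6 and 45.8 in control chondrocytes. The difference did not pass the threshold (1.03 ± 0.241, adjusted p = 0.101, edgeR). Of the other Sox genes 6 of 17 could be tested and 0 passed. They included *Sox11* (0.106 ± 0.114), *Sox4* (−0.385 ± 0.150) and *Sox8* (0.0172 ± 0.132), the last a close relative of *Sox9*. Of the neighbours of *Sox9*, 7 could be tested and 0 passed. Among them *2610035D17Rik* was at 117, 120, 144 and 107 scaled CPM in p21 and 162, 139, 178 and 161 in control chondrocytes, lower in 4 of 4 libraries with 1 p21 value above the lowest control value (−0.394 ± 0.115, adjusted p = 0.195, edgeR).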

How the data were processed

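Dissociated hindlimb cells were profiled by 10x Genomics 3′ chemistry. The authors aligned and counted reads with Cell Ranger 7.2.0 on GRCm38 with transgene sequences added, and the deposited matrices hold raw UMI counts per gene and barcode, of 11945062 to 39435830 UMIs per library. Intronic counting is not given in the sources used here. The study's methods also name ambient RNA removal and doublet detection, not stated for these matrices.

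Barcodes were kept with at least 1000 UMIs, 500 genes and at most 10% mitochondrial UMIs. Condition followed from sex per the study's methods, called from *Xist* against 4 Y-linked genes (at least 2 UMIs, 80% on 1 side). Sex-mixed barcodes and the top 5% of Scrublet scores were left out. Cells were clustered with scanpy 1.11.5 (2000 variable genes, 30 components, 15 neighbours, Leiden resolution 1), and a name needed 3 markers and a score of 0.5 (for chondrocytes also 5 chondrocyte markers), cells of more than 1 library, and leading genes that did not favour another type or, in shallow clusters, included its own. Counts summed per library and condition were tested with edgeR 4.0.16 (quasi-likelihood, TMM, filterByExpr, Benjamini-Hochberg adjustment over all genes tested), with DESeq2 1.42.0 and limma 3.58.1 as alternatives. The fits were tested on simulated counts with 100 genes changed by 1 and 100 by 2 log2 units. Of changes of 1 they recovered 74 for p21 over all cells and 55 in chondrocytes. For tdT+ against tdT− it was 70, and for the interaction 2. At changes of 2 these numbers were 96, 94, 94 and 47. False calls numbered 14, 19, 10 and 9 in the same order. P-values rest on 2 embryo pools per condition. Intervals on counts cover counting error only.

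Members and lists were chosen with earlier results of these data known. Genes were named by list (those past the threshold, otherwise the 3 most abundant), by likeness (5 per member) and by distance to *Sox9*. Replicate numbers mark the collection, and deviations of same-numbered samples correlated at 0.0860 to 0.295 over all cells and −0.0943 to 0.0158 in chondrocytes. RefSeq promoters and GENCODE vM21 transcripts gave the sequences.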

Additional observations from a re-analysis of the deposited data

Results flagged for a closer look

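Of 68 groups of 4 to 10 pseudobulk values examined, 6 held a value far from the others by Dixon's criterion, and chance gives about 1 in 20 groups. *Sox9* in interzone or articular cells was at 1152 CPM in the tdT+ control cells of collection 1 (14 cells), against 592 to 775 in the other pseudobulks. *Sox9* in prehypertrophic or hypertrophic chondrocytes was at 231 CPM in the tdT− control cells of collection 1 (18 cells), against 530 to 572. *Sox6* in cluster 2 was at 287 CPM in the tdT+ p21 cells of collection 1, against 24.3 to 112. *BC006965* in cluster 2 was at 15.6 CPM in the tdT− control cells of collection 1, a value of 5 UMIs, against 1.86 to 4.63. *BC006965* in cluster 7 was at 90.4 CPM in the tdT+ control cells of collection 2, against 10.3 to 25.1. Among control chondrocytes, *BC006965* was at 62.6 CPM in the tdT+ cells of collection 2, against 101 to 106 in the other control pseudobulks.

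Barcodes under 1000 UMIs, which entered no comparison, also carried all 4 genes. The highest levels there were 385 CPM for *Sox9* (tdT+, collection 1) and, in the tdT− library of collection 1, 129 CPM for *Sox5*, 89.4 CPM for *Sox6* and 38.2 CPM for *BC006965*.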

How the results depend on the processing

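Over all cells, the 3 genes called between p21 and control became 43 with DESeq2, 7 with limma voom, 425 without a filter on low counts, 0 when summed per embryo pool and 0 to 5 when each pseudobulk was left out in turn. In chondrocytes the 52 calls became 144 with DESeq2, 442 without the filter, 31 with the library as a block and 1 to 88 with a pseudobulk left out. The count was 1 without the tdT+ p21 cells or without the tdT− control cells of collection 2, and 88 without the tdT+ control cells of collection 2. With the replicate number as a block, the pairing by collection gave 3 calls over all cells, 41 in chondrocytes, 2 for tdT+ against tdT− and 0 for the interaction, and changed no call of the members or of *Matn3*. The 2 calls between tdT+ and tdT− chondrocytes became 1 with limma voom, 66 without the filter, 7 at Leiden resolution 0.5, 6 with the embryo pool as a block and 0 to 3 with a pseudobulk left out. The interaction gave 29 without the filter, 1 with a minimum of 2000 UMIs and 0 to 1 with a pseudobulk left out. The cause of these changes was not tested.

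The ratio of chondrocytes to other cells at resolution 0.5 was 2.42 for *Sox9*, 3.13 for *Sox5*, 2.45 for *Sox6* and 7.80 for *BC006965*, and with barcodes of no sex call included 2.59, 3.96, 3.38 and 5.40. For *BC006965* it was 4.46 with a minimum of 2000 UMIs and 4.52 with doublets kept. Thinning to 5000 UMIs moved the median r to 0.300 for *Sox9* and *Sox5*, 0.0421 for *Sox9* and *BC006965* and 0.651 for *Sox5* and *Sox6*. No alternative reversed a direction that had been called. The counts of *BC006965* (3675 UMIs in all kept cells) limit what can be read within single clusters.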
